A study of Mus musculus with 2 samples.

Results

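The chromatin occupied by the thyroid hormone receptor TRα1 was described around 10 genes of mitochondrial fatty acid oxidation, namely Acsl1, Acot2, Cpt1a, Cpt1b, Cpt2, Acadvl, Acadl, Acadm, Hadha and Acaa2, out of 21938 protein-coding genes. The genes were chosen by name, with earlier results of these data known, and a TR binding site (TRBS) was assigned to a gene when its summit, the base with the highest ChIP signal, lay within 100 kb of the transcription start site (TSS). Sites within 30 kb were considered first. Of the 5107 TRBS in the deposited list, 7 lay within 30 kb of 1 of these 10 genes and 15 within 100 kb.

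The series held 2 libraries, 1 of chromatin immunoprecipitated with an antibody against TRα and 1 of the input chromatin, which served as control. Both came from the brown adipose tissue of male C57BL/6J mice, 8 to 12 weeks old, in which brown adipocytes alone expressed a GS-tagged TRα1. Both groups shared the same treatment, which was propylthiouracil in the food for 2 weeks to make the animals hypothyroid, then thyroid hormone for 24 h. Tissue pieces were crosslinked with disuccinimidyl glutarate and then formaldehyde. The tag was thus limited to brown adipocytes, and tissue was taken in the presence of hormone. The study lists these data under GS-TRα of brown adipocytes and the labels name the antibody only by its target, and whether precipitation was through the tag is not given in the sources used here. The number of animals behind each library is not given in the sources used here, hypothyroid tissue without hormone was not analysed here, and the peak list measures no transcript level. With 1 library on each side there was no replicate, no test was possible, and every interval given covers counting error only. The brown fat genes Ucp1, Cidea and Ppargc1a had 5, 3 and 4 TRBS within 30 kb, where 16.7% of all protein-coding genes had any and 4.55% more than 1. These 3 genes were chosen by hand, and a TRBS near them does not establish the tissue. Ppargc1a also belongs to the list of genes that control entry.

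TRα1 is a nuclear receptor that binds DNA mostly as a heterodimer with RXR, at pairs of half-sites close to AGGTCA. The best known element is DR4, a direct repeat of the half-site with 4 bases between the copies. Brown adipocytes burn fatty acids in their mitochondria to feed heat production through the uncoupling protein UCP1, and thyroid hormone is a classical activator of this tissue. A fatty acid is first activated to acyl-CoA, carried through the mitochondrial membranes as acylcarnitine, and then shortened in rounds of dehydrogenation, hydration, a further dehydrogenation and thiolysis.

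The members differed in how near the closest TRBS was. One lay within 30 kb of 3 members, Acsl1, Hadha and Acaa2, against 16.7% of all protein-coding genes. At 100 kb there were 5 members, with Cpt1b and Acadvl added, against 38.3% of all protein-coding genes. Acot2, Cpt1a, Cpt2, Acadl and Acadm had none at that distance. The site just inside the 30 kb limit was 19106 bp from Hadha and the one just outside it 32310 bp from Acsl1, and the wider limit fell between 83749 bp at Acsl1 and 101313 bp at Cpt2. Acsl1 and Hadha each had more than 1 TRBS within 30 kb, which held for 4.55% of protein-coding genes. When only TRBS with a score of at least 60 were kept, the same 3 members had one within 30 kb, against 14.1% of protein-coding genes. The score is 10 times the −log10 of the q-value of the peak. With 10 genes, 1 gene more or fewer moves a share by 10 percentage points, so no difference between the members and other genes is read from these counts. The median distance from the TSS to the nearest TRBS was 84.1 kb for the 10 members and 162 kb over all protein-coding genes.

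**Figure D1:**
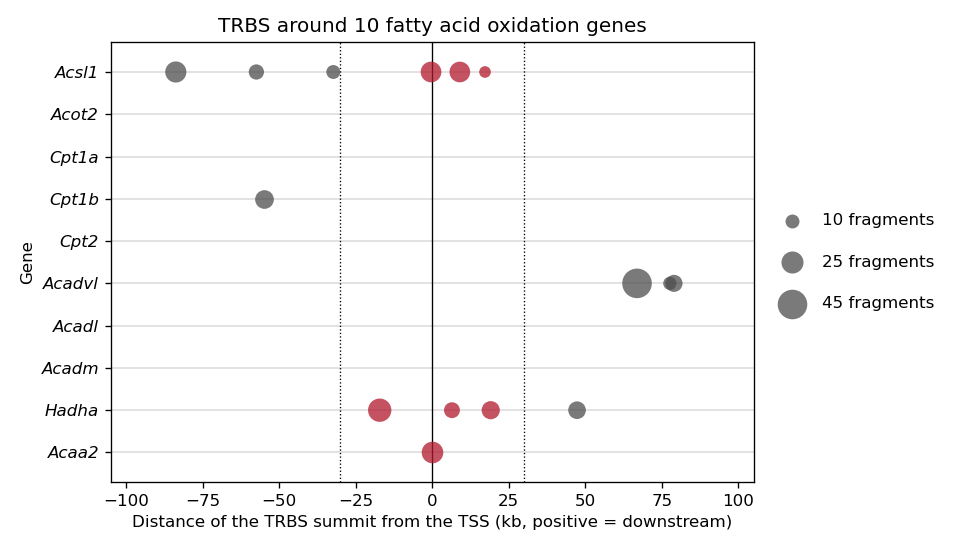
Position of every TRBS within 100 kb of the TSS of the 10 genes, 1 row per gene in the order of their roles, with the distance to the TSS in kb on the x axis (downstream to the right), the area of each point following the ChIP fragments at the summit and dotted lines at 30 kb. The 3 TRBS of Acsl1, the 3 of Hadha and the 1 of Acaa2 lie within 30 kb, and 5 rows hold no point.

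Acsl1 (ENSMUSG00000018796, chr8:46471037-46536051, plus strand) encodes the long-chain acyl-CoA synthetase that activates fatty acids. It had 6 TRBS within 100 kb, a number reached by 1.34% of protein-coding genes, and Acsl1 was the nearest protein-coding gene to all of them. The threshold of 6 was set after its count was seen. These sites lay on both sides of the TSS, and each had another TRBS 8230 to 26312 bp away as its nearest neighbour. The size of a site is given as the number of sequenced ChIP fragments over its summit. The first was in the promoter, with a summit 393 bp upstream of the TSS (chr8:46470150-46470742). It held 22 ChIP fragments at the summit, with an exact 95% Poisson interval of 13.8 to 33.3, over an input background of 1.18 fragments. Its fold enrichment, computed by the peak caller after adding 1 to both the ChIP fragments and the background, was 10.6. The second lay in an intron, 9012 bp downstream (chr8:46479865-46480216), also with 22 fragments (13.8 to 33.3). Its fold was higher, at 16.1, over a lower background of 0.430 fragments. This is the lowest background in the list and was shared by 1004 TRBS, so it is not a measure of the input at this site alone. The third was intronic too, 17242 bp downstream (chr8:46488138-46488570) and 2687 bp upstream of the start of another Acsl1 transcript. It was the weakest of the 7 sites within 30 kb, with 7 fragments (2.81 to 14.4), a fold of 4.69 and a score of 29.

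The 3 TRBS of Acsl1 beyond 30 kb were all intergenic and upstream. They were found 32310, 57437 and 83749 bp from the TSS, with 10, 12 and 23 fragments. The farthest of them (chr8:46387008-46387481) equalled the intronic site in fold, at 16.1, and its 23 fragments had an interval of 14.6 to 34.5. The counts thus did not fall steadily with distance from the TSS, and the intervals of these 3 sites overlapped. Among the 8 sites beyond 30 kb, the one 32310 bp upstream was the only 1 with a DR4 at up to 2 mismatches, and the one 83749 bp upstream the only 1 with a DR1.

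The bases around the summits of both stronger Acsl1 sites are shown because they hold AGGTCA half-sites without a close DR4. They are read from the plus strand of the GRCm38.p6 RefSeq reference, and capitals mark AGGTCA or GGGTCA on either strand (TGACCT is AGGTCA read on the minus strand).
Acsl1 promoter site, chr8:46470494-46470793: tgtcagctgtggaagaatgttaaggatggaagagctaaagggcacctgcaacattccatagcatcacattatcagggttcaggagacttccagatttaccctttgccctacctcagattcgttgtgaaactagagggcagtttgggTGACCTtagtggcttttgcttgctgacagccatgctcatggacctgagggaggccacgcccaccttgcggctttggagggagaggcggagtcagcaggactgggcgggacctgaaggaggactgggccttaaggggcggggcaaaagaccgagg
Acsl1 intronic site, chr8:46479899-46480198: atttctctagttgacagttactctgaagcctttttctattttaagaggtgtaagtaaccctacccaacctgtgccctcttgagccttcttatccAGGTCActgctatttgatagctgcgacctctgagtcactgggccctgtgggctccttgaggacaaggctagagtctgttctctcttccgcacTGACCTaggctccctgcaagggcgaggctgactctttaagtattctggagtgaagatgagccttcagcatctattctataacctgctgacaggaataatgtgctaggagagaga
The promoter site had 1 half-site, which contained the summit and was centred 1.5 bp from it. The intronic site had 2 half-sites, the nearer of them centred 38.5 bp from the summit. The best DR4 match at the promoter site, AGGGCAgtttGGGTGA, differed from the consensus at 3 of the 12 half-site bases. At the intronic site the best match was AGGTCAgtgcGGAAGA with 4 mismatches, and at the weak site 17242 bp downstream it was AGCTGAgcagAGCTCA with 3. A repeat with 3 bases between the half-sites (DR3) overlapped the summit of the promoter site as AAGCCActaAGGTCA on the minus strand, with 2 mismatches. The promoter site also held matches to the C/EBP motif, 317 and 395 bp from the summit, each with 1 mismatch, and a match to the EBF motif at 476.5 bp. It was the only 1 of the 7 sites with either motif, against 16.1% of all TRBS for C/EBP and 4.54% for EBF. The NF1 motif was in 0 of 7, against 2.94%.

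Acot2 (ENSMUSG00000021226, chr12:83987861-83993873, plus strand) encodes a mitochondrial thioesterase that releases free fatty acid from acyl-CoA. It lies in a cluster of related genes, and neither Acot2 nor its neighbours Acot1, Acot3, Acot4, Acot5 and Acot6 had a TRBS within 30 kb. The TRBS nearest to Acot2 was 167 kb downstream, in an intron of Elmsan1, with 54 fragments and a fold of 21.8.

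The carnitine palmitoyltransferases, which make and use the acylcarnitine that crosses the mitochondrial membranes, had no TRBS within 30 kb. Cpt1a (ENSMUSG00000024900, chr19:3322334-3385733, plus strand), the outer membrane form known from liver, had its nearest TRBS 328 kb away in an intron of Lrp5, with 10 fragments. Cpt1b (ENSMUSG00000078937, chr15:89416405-89425863, minus strand) is the form of muscle and brown fat. It had 1 TRBS within 100 kb, 54945 bp upstream (chr15:89480539-89480999), with 18 fragments (10.7 to 28.4) and a fold of 6.72. This site was only 3383 bp from the TSS of Arsa, and Cpt1b sits in a dense stretch with the TSS of 5 other protein-coding genes within 30 kb. Cpt2 (ENSMUSG00000028607, chr4:107903981-107923610, minus strand), the inner membrane enzyme, fell just outside the wider limit, with its nearest TRBS 101313 bp upstream in an intron of Podn and 12 fragments there.

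The acyl-CoA dehydrogenases carry out the opening step of each round and differ in the chain length they prefer. Acadvl (ENSMUSG00000018574, chr11:70010183-70015411, minus strand), for very long chains, had 3 TRBS within 100 kb, all more than 30 kb downstream. The nearest, 66886 bp from the TSS (chr11:69948203-69948862), was the strongest of the 15 sites, with 45 fragments (32.8 to 60.2), a fold of 18.9 and a score of 468. It lay in the promoter of Slc2a4, the gene of the insulin-responsive glucose transporter GLUT4, 337 bp upstream of that TSS. The other 2 lay in Ybx2, with 9 and 15 fragments. Acadl (ENSMUSG00000026003, chr1:66830839-66863277, minus strand), for long chains, was the most isolated member, with its nearest TRBS 1685 kb away in an intron of Idh1. Acadm (ENSMUSG00000062908, chr3:153922357-153944632, minus strand), for medium chains, had its nearest TRBS 112996 bp downstream, between genes, with 32 fragments and a fold of 23.1. Measured from the start of a shorter Acadm transcript, that site was 98506 bp away and would enter the wider window.

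Hadha (ENSMUSG00000025745, chr5:30118304-30155162, minus strand) encodes the α subunit of the trifunctional protein, which hydrates and again dehydrogenates long-chain intermediates. Its partner subunit gene Hadhb starts 86 bp away on the other strand, so the 3 TRBS within 30 kb belonged to both genes. The strongest of them was 17154 bp upstream of Hadha (chr5:30172110-30172544), inside an intron of Hadhb, with 28 fragments (18.6 to 40.5) and a fold of 13.1. It had the highest fragment count of the 7 sites within 30 kb and ranked 1185 of 5107 in the whole list. The second, 6439 bp downstream (chr5:30148542-30148963), held 13 fragments (6.92 to 22.2) with a fold of 8.77. It overlapped an exon of a non-coding Hadha transcript that is intronic in the coding ones, and 66.4% of its bases were annotated repeats. The third, 19106 bp downstream (chr5:30135865-30136358), held 17 fragments (9.90 to 27.2) with a fold of 11.2, in an intron and 1014 bp upstream of the start of a shorter Hadha transcript. A further TRBS lay 47294 bp downstream in an intron of Garem2, with 16 fragments (9.15 to 26.0). The nearest protein-coding TSS to it was that of 3110082J24Rik, 1782 bp away. Measured from the start of another Hadha transcript, this site was 12437 bp away and would enter the 30 kb window. With any transcript start, 8 TRBS lay within 30 kb of a member.

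The summit regions of the 2 Hadha sites with most fragments are shown from the plus strand of the same reference, since they hold a DR3 and a DR1 with 1 mismatch each. Capitals again mark AGGTCA or GGGTCA on either strand.
Hadha upstream site, chr5:30172166-30172465: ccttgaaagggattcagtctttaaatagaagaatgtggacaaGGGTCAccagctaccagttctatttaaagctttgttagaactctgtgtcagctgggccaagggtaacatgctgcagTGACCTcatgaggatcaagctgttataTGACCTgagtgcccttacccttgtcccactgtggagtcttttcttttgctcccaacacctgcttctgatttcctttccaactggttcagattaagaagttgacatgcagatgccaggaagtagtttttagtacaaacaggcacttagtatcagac
Hadha downstream intronic site, chr5:30135906-30136205: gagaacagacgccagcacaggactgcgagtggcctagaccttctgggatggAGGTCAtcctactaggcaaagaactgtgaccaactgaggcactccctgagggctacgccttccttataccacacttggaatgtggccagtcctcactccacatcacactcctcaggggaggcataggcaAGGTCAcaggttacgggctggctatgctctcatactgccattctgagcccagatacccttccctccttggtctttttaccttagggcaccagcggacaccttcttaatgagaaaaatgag
The summit of the upstream site lay inside an AGGTCA, 2.5 bp from the centre of that half-site. This half-site was part of AGGGCActcAGGTCA on the minus strand, a DR3 with 1 mismatch whose centre was 2 bp from the summit. The best DR4 match at the same place, AAGGGCactcAGGTCA, had 4 mismatches. The downstream intronic site held a DR1, with 1 base between the half-sites, AGGTCAcAGGTTA with 1 mismatch and 36 bp from the summit. DR1 is the element classically read by PPAR and RXR. The best DR4 match there was AGGGCAccagCGGACA with 3 mismatches.

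The remaining Hadha site, 6439 bp downstream, was the only 1 of the 7 with a DR4 at up to 2 mismatches. The element is printed beside its DR1, both on the minus strand, with half-sites in capitals.
Hadha DR4, chr5:30148790-30148805: AGGTCAgaagAGGGCA
Hadha DR1, chr5:30148651-30148663: AGGTCAgAGGTCC
Each had 1 mismatch. The DR4 was centred 74.5 bp from the summit and the DR1 66 bp from it. The 16 letters of the DR4 lay wholly in annotated repeat sequence and occurred 1253 times in the genome, of which 4 were in a TRBS. A run of letters matching DR4 at up to 2 mismatches had a median of 2 copies and a 95th percentile of 7. How reads were shared among such copies was not tested.

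Acaa2 (ENSMUSG00000036880, chr18:74779197-74806208, plus strand) encodes the thiolase that splits off acetyl-CoA at the end of each round. Its single TRBS covered the TSS (chr18:74778874-74779244), with the summit 84 bp upstream. It held 24 fragments (15.4 to 35.7) over a background of 1.09, with a fold of 11.9. No other TRBS was within 100 kb. The G and C bases made up 65.8% of this site, against a median of 51.1% over all TRBS. With the Acsl1 promoter site this made 2 members occupied less than 1 kb from their start, against 3.02% of all protein-coding genes, a distance chosen after these 2 sites were seen.

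**Figure D2:**
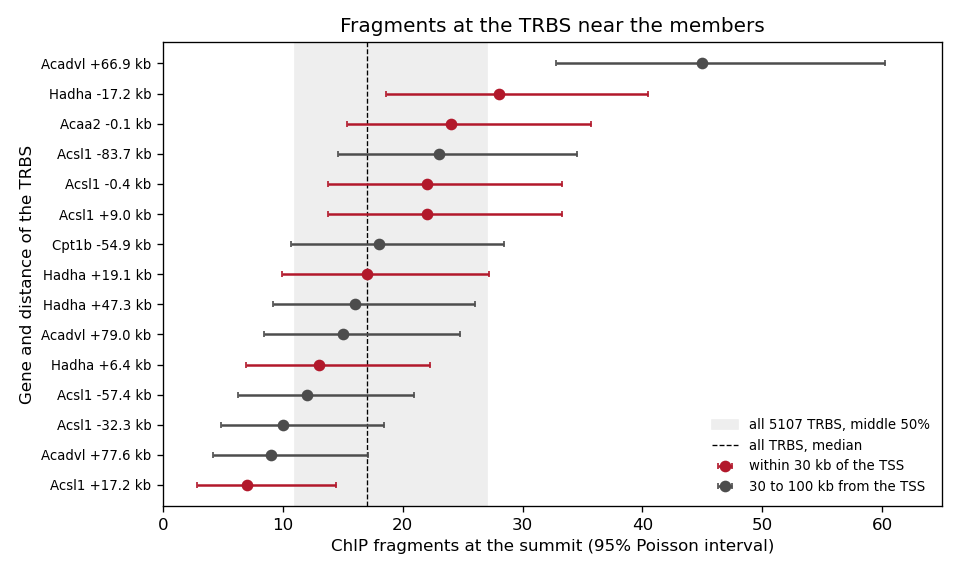
ChIP fragments at the summit (x axis) of the 7 TRBS within 30 kb and the 8 between 30 and 100 kb, in red and grey, 1 row per site with its distance to the TSS, with exact 95% Poisson intervals as bars and the median of all 5107 TRBS as a dashed line. The sites range from 7 to 45 fragments and the intervals of all but 3 span the median of 17. The shaded band is the range between the quartiles of all TRBS, 11 and 27.

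In size the 7 sites within 30 kb resembled the bulk of the list. Their median was 22 fragments (range 7 to 28), against 17 over all TRBS, where the quartiles were 11 and 27. The median fold was 11.2 against 9.83, the median score 175 against 141 and the median width 433 against 424 bp. The median share of repeat bases was 9.70% against 7.01%. The 8 sites between 30 and 100 kb had a median of 15.5 fragments and a fold of 7.19. None of the 15 approached the strongest TRBS near Ucp1, which held 362 fragments. The fewest fragments of any listed TRBS were 5, and 9 among the 4210 TRBS with a score of at least 60. A site with a lower occupancy than this was not detectable at this depth, so the 5 genes without a TRBS within 100 kb cannot be said to lack the receptor.

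The sequence of the 7 sites was then compared with all TRBS and with flanks of equal width 2 kb beyond each edge. DR4 (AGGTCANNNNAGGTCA, both strands, up to 2 mismatches over the 12 half-site bases) was found in 1 of 7, against 32.0% of all TRBS (95% Wilson interval 30.7 to 33.3%) and 5.44% of flanks. DR1 (AGGTCANAGGTCA, same settings) was found in 2 of 7, both at Hadha, against 14.9% of TRBS and 7.93% of flanks. Spacers of 0 to 10 bases were searched, and DR3 and DR7 had the highest counts among them. DR3 was found in 3 of 7, against 11.7% of all TRBS and 5.90% of flanks, and DR7 in 3 of 7, against 9.36% and 5.46%. DR0, DR8, DR9 and DR10 were found in 1 of 7 each, against 10.3 to 14.96% of all TRBS, and DR2, DR5 and DR6 in 0 of 7, against 9.73 to 11.7%. Windows that match 1 spacing often share a half-site with another, so these counts are not independent. A single AGGTCA half-site was present in 5 of 7, against 56.0% of TRBS and 27.6% of flanks. The GGGTCA half-site was present in 1 of 7, against 38.8% of TRBS and 21.1% of flanks. An AGGTCA or GGGTCA half-site lay within 50 bp of the summit in 4 of 7, against 46.1% of all TRBS. With 7 sites no difference from the list as a whole is read from these counts, and a match of letters describes the sequence only.

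Many more DR4 elements lay around the 10 genes than were in a TRBS. There were 77 elements less than 30 kb from the TSS at up to 2 mismatches, from 4 at Acadvl to 13 at Cpt1a, with a median of 6.5 per member against 7 over all protein-coding genes. Of the 77, 1 lay in a TRBS, which is 1.30%, against 0.711% of the 290078 such elements in the genome. At up to 1 mismatch there were 8 elements in 6 of the members, 1 of them in a TRBS, against 1.91% of 22256 in the genome. Both genome shares include elements far from any gene. The share within 30 kb of all protein-coding TSS is not given here, so the values are not a like comparison. Annotated repeats held 19 of the 77 wholly, and of the 69 whose letters were tallied 12 occurred more than 100 times in the genome.

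**Figure D3:**
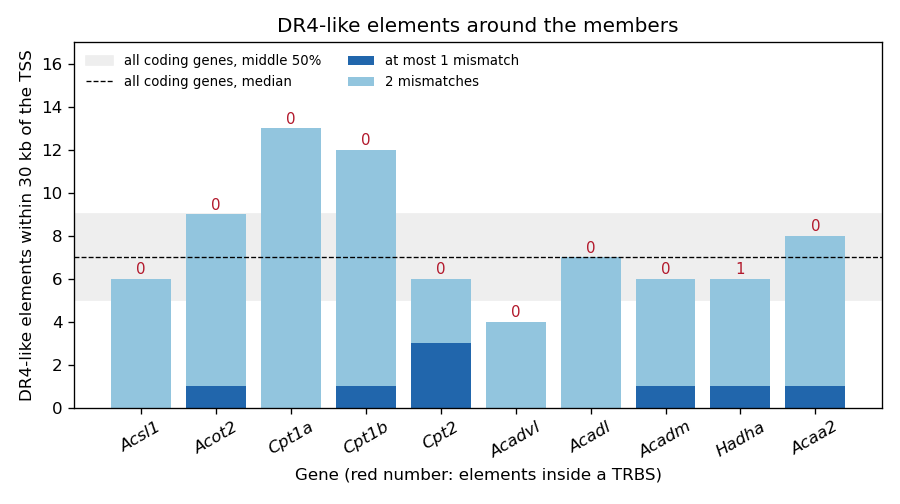
Number of DR4 elements within 30 kb of the TSS (y axis) for each of the 10 genes (x axis), with those at up to 1 mismatch in dark blue and those at 2 mismatches in light blue, the median of all protein-coding genes as a dashed line at 7 and the range between their quartiles, 5 to 9, shaded. The bars run from 4 at Acadvl to 13 at Cpt1a, and the red number above each bar, the elements inside a TRBS, is 1 at Hadha and 0 at the other genes.

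Elements at up to 1 mismatch near members that had no TRBS within 30 kb are shown because they are close matches outside any TRBS, with half-sites in capitals, each written 5′ to 3′ on the strand that holds the repeat.
Acot2, 6763 bp upstream, chr12:83981091-83981106, minus strand: AGGTCAagttATGTCA
Acadm, 24274 bp downstream, chr3:153920351-153920366, plus strand: AGGTCAtgcaGGGTCA
Cpt2, 12209 bp downstream, chr4:107911394-107911409, plus strand: AGGCCAgcttAGGTCA
Cpt2, 18466 bp downstream, chr4:107905137-107905152, minus strand: AGGTCAgaaaAGGGCA
Cpt2, 24065 bp upstream, chr4:107947668-107947683, plus strand: AGGCCAgaggAGGTCA
Cpt1b, 14722 bp upstream, chr15:89440578-89440593, plus strand: AGGTCAgagaAGGGCA
The Acot2 and Acadm runs had 2 copies each in the genome. The Cpt2 element 18466 bp downstream had 138 copies, 1 of them in a TRBS elsewhere, and the Cpt1b element had 28. The other Cpt2 elements had 5 copies downstream and 24 upstream. The Cpt1b element and the Cpt2 elements at 18466 and 24065 bp lay wholly in annotated repeats. The Cpt2 element at 12209 bp had 11 of its 16 bases in one and the Acadm element 9, while the Acot2 element had 0. Cpt2, with 3 such elements, had none of them occupied in this list. Cpt1a had no element at up to 1 mismatch, and the one nearest to its TSS was AGGGCAtttaAGGTGA, 437 bp upstream (chr19:3321890-3321905), with 2 mismatches and outside any TRBS. The accessibility of the chromatin at these places was not measured here.

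In the promoters, taken as 250 bases before to 50 after the RefSeq start on GRCm38, 8 of the 10 members had an entry, all but Cpt1b and Acaa2. DR4 was found in 1 of them, Acadvl, at chr11:70015510-70015525 with 2 mismatches, against 3.15% of all genes in the table. This element, GGATCAccctAGGTCA, was not in a TRBS. Cpt1b, which had no entry, also had a DR4 at its start, AGGTCAccagGAGTCA with 2 mismatches, 248 bp upstream of the GENCODE TSS (chr15:89426104-89426119) and outside any TRBS. DR1 was found in 0 of the 8, against 3.95%. An AGGTCA half-site was present at Acadm, Acadvl and Cpt1a, against 16.4% of all genes, and a GGGTCA half-site at 0 of the 8, against 15.5%.

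**Figure D4:**
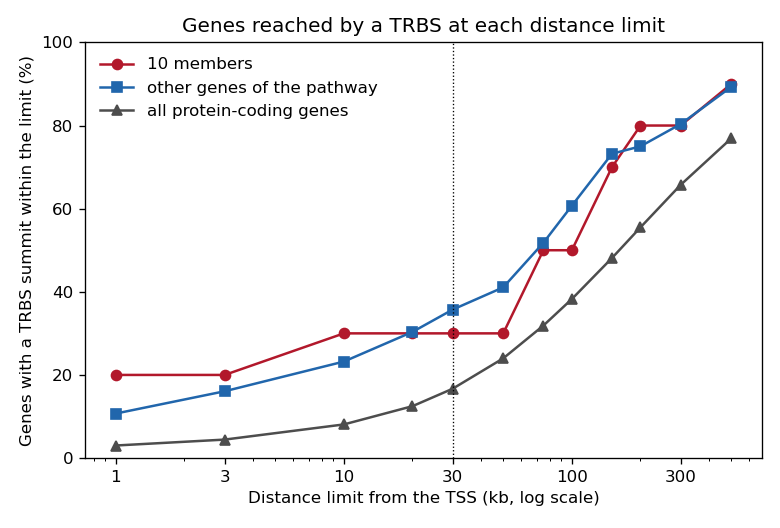
Share of genes with a TRBS summit within a given distance of the TSS (x axis, kb, logarithmic), for the 10 members, the 56 other fatty acid oxidation genes and all 21938 protein-coding genes. At 30 kb the shares are 30%, 35.7% and 16.7%, and at 100 kb 50%, 60.7% and 38.3%.

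The other genes of fatty acid oxidation were counted by step. Of 56 such genes, 20 (35.7%) had a TRBS within 30 kb and 34 (60.7%) within 100 kb. The shares over all protein-coding genes were 16.7% and 38.3%. With so few genes per step, and a list chosen by hand, no difference from these shares is read for any step. In activation and entry there were 2 of 9, Acsl5 and Crat. Among the dehydrogenases and electron carriers there were 3 of 11, Acads, Acad10 and Etfb. The later mitochondrial steps gave 2 of 5, Hadhb and the enoyl-CoA hydratase gene Echs1, and the auxiliary enzymes 1 of 5, Ech1. Peroxisomal oxidation gave 5 of 11, among them Acaa1a, Acaa1b, Abcd2 and Abcd3, and the thioesterases 3 of 11, Acot8, Acot11 and Acot12. All 4 genes that control entry had a TRBS within 30 kb. Acacb and Mlycd make and remove the malonyl-CoA that inhibits CPT1, and Ppara and Ppargc1a encode transcriptional regulators. The only site of Mlycd was 27852 bp downstream, between genes and nearest to Osgin1. Over the 40 TRBS of these genes the median was 17.5 fragments, against 17 for all TRBS within 30 kb of a coding gene. Some were weak, and the only sites within 30 kb of Acads, Acad10 and Acot12 had scores of 41, 14 and 13. When only TRBS with a score of at least 60 were kept, 16 of the 56 genes had one within 30 kb. The share of protein-coding genes was then 14.1%.

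Several of these sites were larger than any within 30 kb of the 10 members. Acot11, a thioesterase gene of brown fat, had 87 fragments (69.7 to 107) at an intronic site 26230 bp downstream (chr4:106778486-106779032), with a fold of 50.1. Echs1 had 68 fragments (52.8 to 86.2) at a site 9218 bp upstream (chr7:140125352-140126023) that lay in the 5′ UTR of Paox. The peroxisomal thiolase gene Acaa1a also had 68 (52.8 to 86.2), 1409 bp downstream (chr9:119340908-119341360) and nearest to Myd88, but with a fold of 17.1 against 42.9 at Echs1. Ppargc1a, which encodes the coactivator PGC-1α, had 65 fragments (50.2 to 82.8) at 28171 bp upstream (chr5:51595505-51596182). The fold there was 41.0. Ppara, which encodes the fatty acid sensor PPARα, had 6 TRBS within 30 kb, and the largest held 46 fragments (33.7 to 61.4) with a fold of 28.8, between genes and 28880 bp upstream (chr15:85705787-85706496). Ech1 had 38 fragments (26.9 to 52.2) with a fold of 15.5 at a site 13935 bp upstream (chr7:28811025-28811531), in an intron of Hnrnpl. Abcd3, a peroxisomal transporter gene, had 29 (19.4 to 41.6) with a fold of 10.6 in its own intron, 846 bp downstream (chr3:121814245-121814721). Hadhb came last with the site of 28 fragments shared with Hadha, 17068 bp downstream of its own TSS. The largest site within 30 kb of a member, with 28 fragments, had an interval of 18.6 to 40.5. The intervals of Acot11, Echs1, Acaa1a and Ppargc1a lay wholly above it, and that of Ppara overlapped it. These sites were picked as the largest of 40. The median over the 40 was 17.5 fragments, against 22 over the 7 sites within 30 kb of a member.

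**Figure D5:**
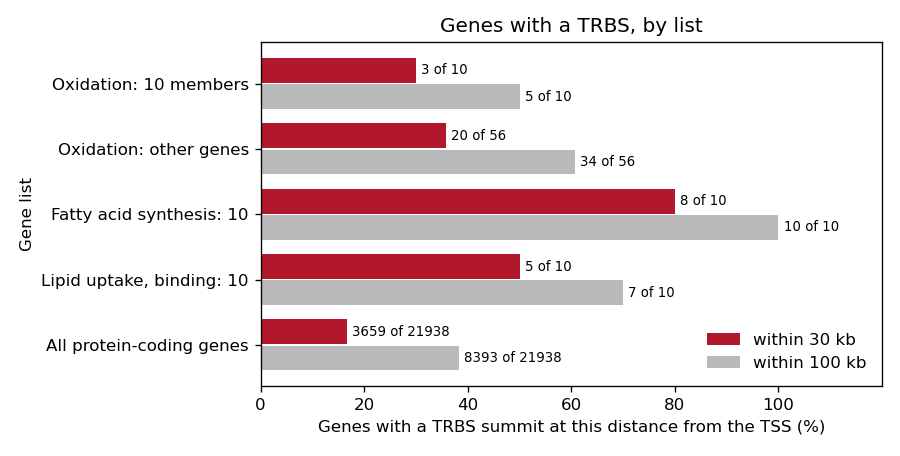
Share of genes with a TRBS summit within 30 kb (red) and 100 kb (grey) of the TSS, by gene list, with the counts printed at the bars. Within 30 kb the counts are 3 of 10 members, 20 of 56 other oxidation genes, 8 of 10 fatty acid synthesis genes, 5 of 10 lipid uptake genes and 3659 of 21938 protein-coding genes.

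Other lipid genes were set beside them, with the shares over all protein-coding genes again being 16.7% within 30 kb and 38.3% within 100 kb. Of 10 genes of fatty acid synthesis, 8 had a TRBS within 30 kb and 10 within 100 kb, with 17 TRBS and a median of 40 fragments. Of 10 genes of lipid uptake and binding, 5 had a TRBS within 30 kb and 7 within 100 kb, with 9 TRBS and a median of 18 fragments. The lists were short and chosen by hand with earlier results of these data known, the genes are not replicates, and the difference between them was not tested.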

How the data were processed

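Chromatin immunoprecipitation sequencing of TRα1 in brown adipose tissue gave 1 peak list, called in 1 ChIP library against 1 input library. The authors aligned paired-end reads to mm10 with Bowtie2 2.3.2.2 and called peaks with MACS2 2.1.1.20160309.6, per the submitters' processing notes. The deposited list gives a score, 10 times the −log10 of the q-value, and the −log10 of the p-value and q-value. It also gives a fold ratio of ChIP over background, with a pseudocount of 1 added to both. No score filter was applied to it, and the total of reads per library is not given in the sources used here.

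From the fold and the p-value the whole number of ChIP fragments at each summit was recovered under the Poisson model of MACS2, within 0.0005 of the deposited −log10 p for 5090 of 5107 TRBS and for all 15 member sites. Exact Poisson intervals were 95%, and shares had Wilson intervals. TSS came from GENCODE M21, and a promoter was 1000 bp upstream to 100 bp downstream of the TSS. Sequences were read from GRCm38.p6 RefSeq with pysam 0.24.0, and other steps used Python 3.11.15, numpy 2.4.6, scipy 1.17.1 and pandas 2.3.3. The recovery and the motif search were tested on simulated data.

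All 10 members were named in the order of their roles, with every TRBS within 30 kb, and the 8 pathway genes with most fragments were given in full. Pathway genes with a TRBS within 30 kb were named, except 1 that is not reported here. Members and lists were chosen with earlier results of these data known. Alternatives were other distances, score and fold thresholds, TSS definitions and mismatch limits.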

Additional observations from a re-analysis of the deposited data

How the results depend on the processing

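Over 9 results and 52 alternatives, 40 alternatives left a count within 1.5 times its value or a share inside its Wilson interval, and the 3 members with a TRBS within 30 kb stayed 3 under each alternative run. With a limit of 10 kb the TRBS near members were 4 in place of 7 and the pathway genes 13 in place of 20. With a score of at least 100, the TRBS within 100 kb of a member were 9 in place of 15. The share of protein-coding genes with a TRBS within 30 kb, 16.7%, became 14.1% at a score of at least 60, 11.3% at 100, 15.6% at a fold of at least 5, 19.6% with any transcript start, 8.09% at 10 kb, 24.0% at 50 kb and 13.0% over all annotated genes. With up to 3 mismatches DR4 was found in 4 of 7 sites, against 72.5% of all TRBS and 35.3% of flanks, and DR1 in 7 of 7, against 55.8% and 40.02%. No paired analysis was possible because there was 1 library per group. Depth limits every site to a counting interval, and 7 fragments at the weakest site left a range of 2.81 to 14.4.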
